A study of Caenorhabditis elegans with 18 samples.

Results

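The genes described here are 9 that define or build the absorptive surface of the C. elegans intestine: elt-2, elt-7, ges-1, pept-1, act-5, ifb-2, vha-6, erm-1 and pho-1. They were chosen by gene name from the 46253 genes of the deposited tables, and all 9 were among the 16006 genes with enough counts to be tested. The samples were whole worms of the wild-type strain N2, synchronised as starved first-stage larvae and grown at 20 degrees C at 30 to 50 worms per plate. Plates carried either ascr#10, an ascaroside that males secrete as a pheromone, diluted in water to 2.2 fg on 60 mm plates or 1.1 fg on 35 mm plates, or water alone as the control. Worms were harvested at 50 h or 58 h after synchronisation, with males and delayed worms taken off first. There were 6 groups of 3 samples: water at 50 h, ascr#10 at 50 h, and each exposure at 58 h in a first and in a second collection. The 50 h worms belong to the first collection, and the second collection holds 58 h worms alone, newly grown and sequenced after the first gave too few reads. Ages were taken from titles and descriptions, which put 6 samples at 50 h, although another label field lists 58 h throughout.

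The worm intestine is a tube of large polarised epithelial cells whose fate is set by GATA transcription factors. ELT-2 is the main regulator of intestinal genes from the embryo to the adult, and ELT-7 acts beside it. The cells face the gut lumen with a brush border of microvilli that hold the actin ACT-5 and the membrane-to-actin linker ERM-1. Under the microvilli lies the terminal web, a belt of intermediate filaments that includes IFB-2. The apical membrane carries PEPT-1, a proton-coupled transporter of short peptides, and VHA-6, a subunit of the proton pump (V-ATPase) that acidifies the lumen. GES-1, a gut esterase, and PHO-1, an acid phosphatase, are long-used markers of differentiated gut. act-5 and erm-1 are also used by the excretory cell, and erm-1 by other epithelia.

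Levels are given as CPM (counts per M counts of the library, scaled between libraries) and, to compare genes with each other, as TPM (transcripts per M transcripts, corrected for length). Total counts ran from 25.6 to 32.9 M in the 12 samples of the first collection and from 54.3 to 72.3 M in the 6 of the second. Every gene rested on at least 115 counts in every sample, the lowest being elt-2 at 58 h in the first collection. Replicates of ascr#10 at 50 h were the least alike, with replicate 2 at a chi-square per gene of 16.8 and 19.2 against its partners and 1.83 between the partners, while other groups had 1.66 to 7.21. Samples of a condition are called independent in the labels, and the p-values rest on the spread among them. That spread lies within a collection and does not include differences between collections, so a small p-value does not measure repeatability in a new collection. A whole-worm library mixes all tissues, so less RNA of a gene in the intestine and more RNA from other tissues cannot be told apart.

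Ranked by TPM in water at 50 h, the structural and pump genes lay far above the enzymes and regulators. act-5 was highest at 294 ± 5.57 TPM (SD, n = 3), followed by ifb-2 at 163 ± 1.06. erm-1 at 129 ± 1.89 and vha-6 at 126 ± 2.23 TPM differed by less than the sum of their SDs. pho-1 at 25.9 ± 0.915 and pept-1 at 23.6 ± 0.443 came next, ahead of ges-1 at 13.7 ± 1.02, elt-7 at 11.3 ± 0.604 and elt-2 at 9.08 ± 0.0986 TPM. act-5 was first and elt-2 last in each of the 6 groups, and the order between them changed. ifb-2, which had rank 2 at 50 h, had rank 4 in all 4 groups of 58 h worms, at 48.8 to 55.2 TPM. pept-1 had rank 6 in both 50 h groups, rank 8 in water and 7 in ascr#10 at 58 h in the first collection, and rank 6 again in the second. At 58 h in the second collection erm-1 and vha-6 in water, at 86.8 ± 0.621 and 86.4 ± 0.98 TPM, again lay within their SDs. On mean CPM, act-5 exceeded 97.8% of the tested genes, vha-6 and erm-1 96.7% each, ifb-2 92.6%, pept-1 78.4%, pho-1 72.7%, ges-1 60.0%, elt-2 51.4% and elt-7 48.3%.

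**Figure D1:**
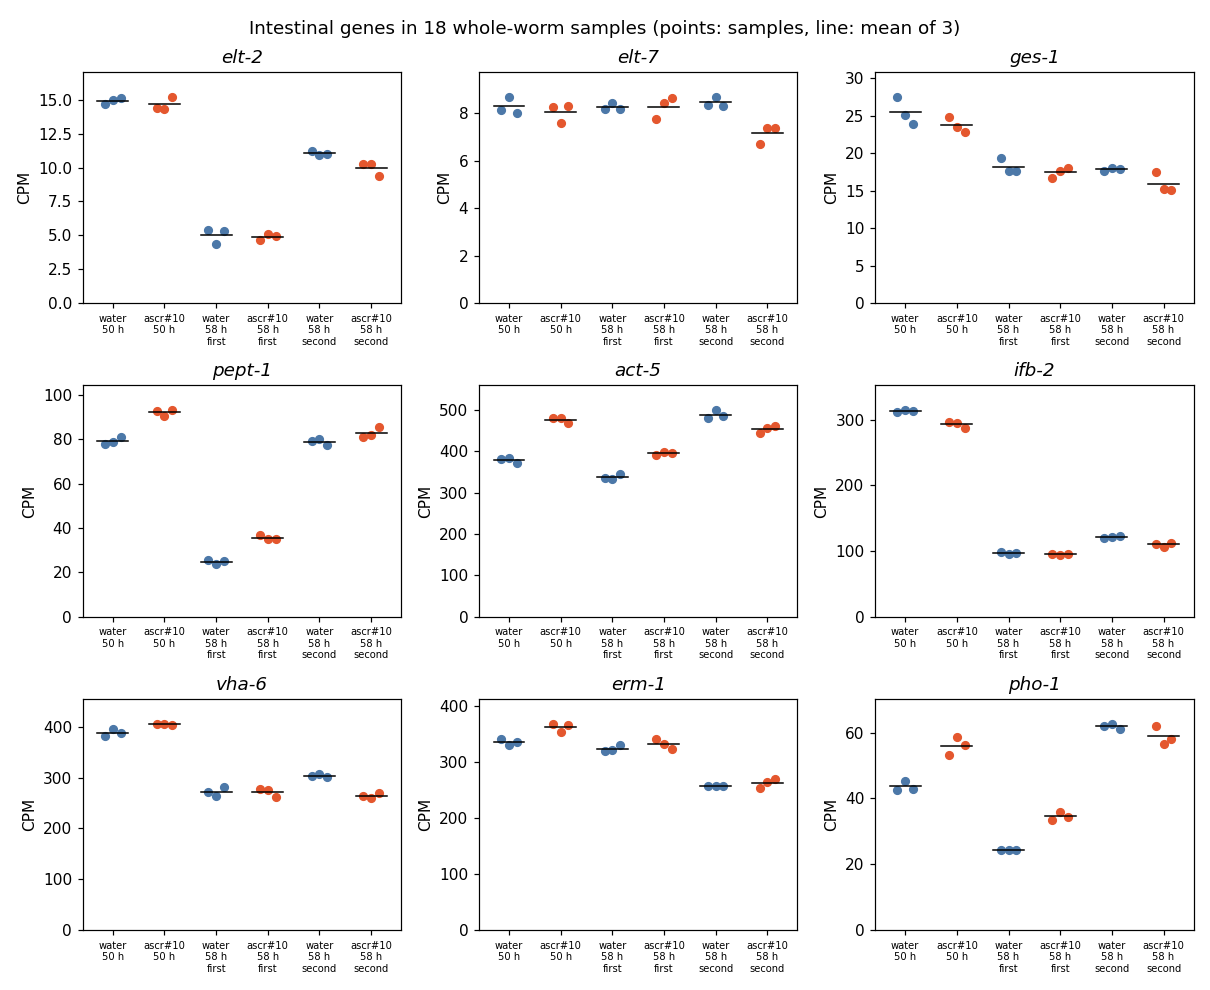
CPM of the 9 intestinal genes in each of the 18 samples (points), with the mean of 3 as a line; blue is water and red is ascr#10, and the 6 columns are the groups at 50 h, 58 h first collection and 58 h second collection. elt-2, pept-1, ifb-2 and pho-1 are lower at 58 h in the first collection than at 50 h. All of these are higher in the second collection than in the first, ifb-2 by the least, and elt-7 stays between 6.71 and 8.70 CPM in every sample.

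In the younger worms, the question is how the intestinal genes of exposed and unexposed animals differed at 50 h. Of the 9 genes, 4 rose in exposed worms, pho-1, act-5, pept-1 and erm-1, by 1.28-fold to 1.08-fold. ifb-2 fell to 0.936 of the water level, and the other 4, the regulators elt-2 and elt-7 among them, did not pass. The median log2 fold change of the 9 was 0.060, against -0.0023 over all tested genes. Differences were tested with edgeR's quasi-likelihood test, with p-values adjusted by Benjamini-Hochberg over all 16006 genes and a threshold of 0.05, and by this rule 12.9% of all genes were called, 7.7% higher and 5.2% lower. Among all called genes 59.7% were higher, a share that moved to 17.1% with limma on log2(TPM + 1), a scale on which all tested genes had a median of -0.0593.

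Neither regulator passed at 50 h, and all positions are those of the WBcel235 genome, where the 9 genes are protein-coding. elt-2 (WBGene00001250, chromosome X from 10481240 to 10483441 on the plus strand, 9 exons) stood at 14.7, 14.96 and 15.1 CPM in water and 14.4, 14.3 and 15.2 CPM in ascr#10. elt-7 (WBGene00015981, chromosome V from 4770670 to 4773086 on the plus strand, up to 4 exons) stood at 8.14, 8.70 and 8.03 CPM in water and 8.27, 7.57 and 8.30 in ascr#10. The groups overlapped for both genes, with log2 fold changes of -0.027 (95% interval -0.17 to 0.11) for elt-2 and -0.045 (-0.22 to 0.13) for elt-7. ges-1 (WBGene00001578, chromosome V from 1427653 to 1432137 on the minus strand, 8 exons), the gut esterase gene, was measured at 27.6, 25.1 and 23.9 CPM in water and 24.8, 23.5 and 22.8 CPM in ascr#10. Those values overlapped as well, and the difference of -0.11 did not pass (adjusted p = 0.264).

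pho-1 (WBGene00004020, chromosome II from 5233156 to 5235846 on the minus strand, 11 exons), the acid phosphatase gene, had 42.7, 45.4 and 42.9 CPM in the water samples and 53.2, 58.7 and 56.4 CPM in the exposed ones. All 3 exposed samples lay above all 3 controls, with a log2 fold change of 0.36 ± 0.0413 (SE, n = 3 each, edgeR adjusted p = 1.25e-09). Its exons share 120 bases with EGAP2.1 on the other strand, and the use of strand in counting is not stated. pept-1 (WBGene00003877, chromosome X from 6456872 to 6461767 on the plus strand, 14 exons), the peptide transporter gene, had 77.7, 78.8 and 81.1 CPM in water against 92.8, 90.7 and 93.2 in ascr#10. These groups did not overlap either, and pept-1 rose by 0.22 ± 0.0331 (adjusted p = 1.25e-06). vha-6 (WBGene00006915, chromosome II from 11435210 to 11438452 on the minus strand, 6 exons), the pump subunit gene, was at 381, 395 and 389 CPM in water and 406, 406 and 403 in ascr#10. The groups did not overlap, yet the difference of 0.060 missed the threshold (adjusted p = 0.0831).

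Of the structural genes, act-5 (WBGene00000067, chromosome III from 13604412 to 13606066 on the minus strand, 3 exons), the microvillar actin gene, had 381, 384 and 373 CPM in water and 480.0, 480.0 and 469.8 CPM in ascr#10. It rose by 0.33 ± 0.0214 (adjusted p = 3.86e-18), with no overlap. The other 4 actin genes were more abundant, at 834 to 2145 CPM in group means, and whether reads of act-5 were shared with them was not tested. erm-1 (WBGene00001333, chromosome I from 5284026 to 5291604 on the minus strand, up to 11 exons) had 341, 331 and 336 CPM in water and 369, 354 and 366 in ascr#10, a rise of 0.11 ± 0.0234 (adjusted p = 0.000525) that did not pass on log2(TPM + 1), at 0.0397 (limma adjusted p = 0.409). ifb-2 (WBGene00002054, chromosome II from 5750188 to 5754140 on the plus strand, up to 11 exons), the terminal web filament gene, went the other way, from 312, 314 and 312 CPM in water to 297, 295 and 287 CPM in ascr#10. Its log2 fold change of -0.095 ± 0.0237 had an adjusted p of 0.00356. Leaving out any 1 of the 6 samples, the unlike replicate 2 of ascr#10 included, left 5 genes called.

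The lists of related genes were read at 50 h too, beginning with the proton pump. Of the other 20 V-ATPase subunits 18 rose with ascr#10 and 0 fell, with a median of 0.127 and vha-5 the largest at 0.26. On log2(TPM + 1) 7 rose and 1 fell, with a median of 0.0579 against -0.0593 over all genes, and without ascr#10 replicate 2 the count was 17 of 20. Of 8 terminal web genes, ifc-1 and ifd-2 rose, by 0.34 and 0.17, and sma-5, a kinase gene, fell by 0.22 (list median 0.0112). On log2(TPM + 1), and also without ascr#10 replicate 2, 1 rose and 2 fell. Of 10 genes for peptide, proton and ion transport, 2 rose and 1 fell, with pgp-2 at 0.18 and the water channel gene aqp-1 at -0.21 (list median -0.0046). Of 15 genes of the microvillus and apical cortex, unc-70, a spectrin gene, rose by 0.12 and hmr-1, a cadherin gene, fell by 0.12 (list median -0.017), and without ascr#10 replicate 2 0 of the 15 rose and 1 fell. act-1 and act-2 rose, by 0.087 and 0.10, among the 4 other actins. Of 11 other acid phosphatase genes 3 rose and 1 fell, from pho-7 at 0.48 to pho-8 at -0.44. Of 13 other luminal and gut-enriched products 2 rose and 1 fell, with the protease genes cpr-5 at 0.12 and cpr-1 at -0.11. glo-4 was the 1 gut granule gene called of 5 tested, at -0.12, a call lost without ascr#10 replicate 2, and of 8 tested GATA factors 0 were called by edgeR. On log2(TPM + 1) the calls in these smaller lists moved toward lower. Of the transport genes 0 were higher and 2 lower, and of the microvillus and apical cortex 0 and 3. The counts were 0 and 1 for actins, 2 and 2 for acid phosphatases, and 0 and 4 for luminal products. The tested genes as a whole shifted the same way, with a median of -0.0593 and most of their calls lower. Whether the lists moved by more than that shift was not tested, and the share of all genes called on this scale is not given here.

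Markers of other tissues were summed in the same samples. Summed CPM of 8 germline genes was 3336 to 3412 in water and 3406 to 3446 in ascr#10, and that of 5 body wall muscle genes 6089 to 6252 and 5971 to 6011. Of these germline genes rme-2, oma-1 and oma-2 were called higher, and of these muscle genes myo-3 was called lower, at -0.16. The others of both lists were not called. Summed CPM of 3 excretory cell genes, which include vha-5, was 216 to 220.3 in water and 251 to 259 in ascr#10, and 2 of the 3 rose. That of the 9 intestinal genes was 1581 to 1597 and 1721 to 1745. The sum of 6 hypodermal genes was 1706 to 1731 in water and 1862 to 1915 in ascr#10, with col-19 called higher and dpy-13 lower. For 5 sperm genes it was 454 to 470 and 424 to 427.5, and 4 of 5 fell. The part of these tissues in the values of the 9 genes was not tested.

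In the older worms at 58 h, exposed and unexposed animals were compared within each collection on its own. In the first collection pept-1, pho-1 and act-5 rose in exposed worms, by 1.45-fold, 1.42-fold and 1.17-fold, and 0 fell. In the second collection 0 rose and 5 fell, vha-6, ifb-2, act-5, ges-1 and elt-7, to between 0.845 and 0.929 of the water level. act-5 was called in both, higher in the first and lower in the second. The 2 comparisons share no samples, and the difference between them was called lower for 5 of the 9 genes and higher for 0.

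By the same rule 8.05% of all genes were called in the first collection, 2.84% higher and 5.22% lower, and 31.7% in the second, 15.3% higher and 16.4% lower. The medians of the 9 were 8e-04 and -0.143, against -0.0011 and -2.4e-05 over all genes. For the difference between the effects, 11.1% of all genes were called, 4.34% higher and 6.8% lower, and the medians were -0.20 for the 9 and 0.022 for all. Of all called genes 35.2% and 48.3% were higher in the first and second collections, and on log2(TPM + 1) these shares were 20.6% and 18%. With the median-of-ratios scaling of DESeq2 in edgeR the first was 47.6%. Total counts were higher in the second collection, and the part of depth in the number of calls was not tested.

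**Figure D2:**
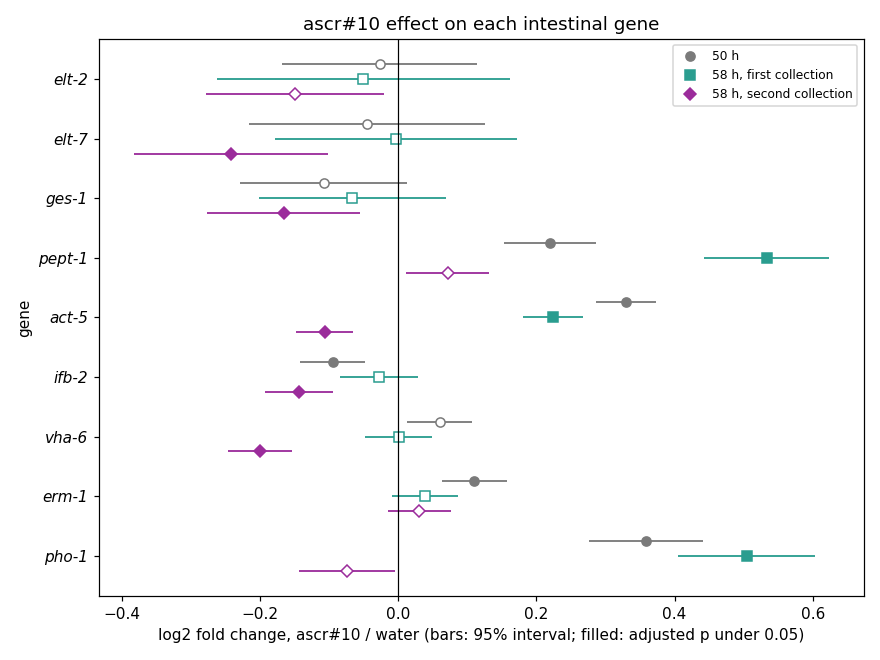
log2 fold change of ascr#10 over water for each intestinal gene at 50 h (circles), at 58 h in the first collection (squares) and at 58 h in the second collection (diamonds), with 95% intervals as bars and filled symbols for adjusted p under 0.05. pept-1, pho-1 and act-5 lie above 0 at 50 h and in the first collection, and act-5 lies below 0 in the second.

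elt-2 stood at 5.43, 4.37 and 5.34 CPM in water and 4.68, 5.06 and 4.92 CPM in ascr#10 in the first collection, and the groups overlapped. The second collection had 11.2, 10.9 and 11.03 CPM in water and 10.3, 10.3 and 9.38 in ascr#10. Those groups did not overlap, but the difference of -0.15 (95% interval -0.28 to -0.020) did not pass (adjusted p = 0.0689). elt-7 gave 8.19, 8.43 and 8.18 CPM in water and 7.74, 8.44 and 8.65 in ascr#10 in the first collection, a difference of -0.0034 (interval -0.18 to 0.17). Its second-collection values were 8.36, 8.68 and 8.32 CPM in water and 6.71, 7.37 and 7.36 in ascr#10, and it fell by 0.24 ± 0.07 (adjusted p = 0.00606). The difference between the collections was -0.24 for elt-7 and was not called (adjusted p = 0.178), so the effects on the regulators are not shown to differ.

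ges-1 was at 19.4, 17.6 and 17.6 CPM in water and 16.7, 17.6 and 17.97 in ascr#10 in the first collection, with overlap and no call (adjusted p = 0.658). In the second it was at 17.7, 18.04 and 17.9 CPM in water and 17.5, 15.3 and 15.03 in ascr#10, a log2 fold change of -0.17 ± 0.0551 (adjusted p = 0.0172). The highest exposed sample lay just under the lowest control. The call was lost without water replicate 2 (-0.157, adjusted p = 0.0585), without ascr#10 replicate 2 (-0.137, adjusted p = 0.0887) and without ascr#10 replicate 3 (-0.122, adjusted p = 0.144). pho-1 rose in the first collection, from 24.4, 24.3 and 24.2 CPM in water to 33.4, 35.8 and 34.4 CPM in ascr#10, by 0.50 ± 0.0493 (adjusted p = 2.06e-11). The later pair of groups read 62.1, 62.8 and 61.1 CPM in water and 62.01, 56.5 and 58.2 in ascr#10, where the groups overlapped and -0.074 did not pass (adjusted p = 0.0934), but without ascr#10 replicate 1 it was -0.109 and passed (adjusted p = 0.0127). The effect in the second collection minus that in the first was -0.58 ± 0.0602 on the log2 scale, the greatest such difference of the 9 (adjusted p = 1.46e-10).

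pept-1 had the largest fold change of the 9 in the first collection. It went from 25.4, 23.6 and 25.02 CPM in water to 37.00, 35.2 and 34.8 CPM in ascr#10, a rise of 0.53 ± 0.0448 (adjusted p = 1.39e-13) with no overlap. Its values in the second collection were 79.05, 79.98 and 77.5 CPM in water and 80.9, 81.9 and 85.7 in ascr#10. All 3 exposed samples were again above the controls, but the difference of 0.072 (interval 0.012 to 0.13) did not pass (adjusted p = 0.0589). It passed at 0.0899 with DESeq2 size factors (adjusted p = 0.0151) and at 0.0911 without ascr#10 replicate 1 (adjusted p = 0.0206). The effect in the second collection minus that in the first was -0.46 ± 0.0539 (adjusted p = 3.58e-09). vha-6 was at 271, 263 and 282 CPM in water and 278, 276 and 263 in ascr#10 in the first collection, and the groups overlapped. It fell in the second collection from 302, 307 and 301 CPM in water to 263, 260.1 and 270.2 CPM in ascr#10, with a log2 fold change of -0.20 ± 0.0229 (adjusted p = 9.39e-10), and the difference between collections was -0.20 (adjusted p = 1.26e-05).

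act-5 moved in opposite directions in the 2 collections. It had 335, 334 and 346 CPM in water and 392, 397 and 396 CPM in ascr#10 in the first, a rise of 0.22 ± 0.0218 (adjusted p = 1.71e-11). Its second-collection values were 481, 499.9 and 486 CPM in water and 444, 457 and 462 CPM in ascr#10, a log2 fold change of -0.11 ± 0.0206 (adjusted p = 6.42e-05). The groups did not overlap in either collection, and the difference between the effects was -0.33 ± 0.03 (adjusted p = 2.41e-12). Both directions and the difference were called in every alternative fit and with any 1 sample left out. erm-1 was measured at 319, 321 and 330.3 CPM in water and 341, 332 and 324 in ascr#10, then at 258, 258 and 257 in water and 254, 265 and 269.6 in ascr#10 in the second collection. It overlapped in both, with differences of 0.039 and 0.030 (adjusted p = 0.384 and 0.322). ifb-2 gave 97.7, 95.4 and 97.00 CPM in water and 95.8, 93.5 and 95.1 in ascr#10 in the first collection, with no call (adjusted p = 0.659). In the second it fell from 119.1, 122 and 123 CPM to 111, 106 and 112 CPM, with a log2 fold change of -0.14 ± 0.0242 (adjusted p = 6.28e-06). The difference between collections, -0.12, had an adjusted p of 0.0321 that ranged from 0.0184 to 0.114 when 1 sample was left out, and the call was lost in 8 of those 12 fits.

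Averaged over both collections with equal weight, pept-1, pho-1 and act-5 were higher by 0.30, 0.21 and 0.059, and ges-1, vha-6 and ifb-2 lower, at -0.12, -0.099 and -0.085 on the log2 scale. The ges-1 call was lost in 8 of 12 fits that left out 1 sample. In this average 25.5% of all genes were called, 11.8% higher and 13.7% lower, and the higher share of called genes, 46.3%, was 59.5% with DESeq2 size factors and 12.1% on log2(TPM + 1). A model with 1 effect common to both collections called pept-1 higher and vha-6 and ifb-2 lower. The share of all genes called by that model is not given here. act-5 and pho-1 were not called there (adjusted p = 0.463 and 0.251), nor was ges-1 (adjusted p = 0.0507).

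Against the effect at 50 h, the effect in the first collection of 58 h was called different for 2 of the 9 genes, pept-1 higher by 0.31 (adjusted p = 7.22e-05) and act-5 lower, at -0.11 (adjusted p = 0.0296). Over all genes 4.74% were called, 0.931% higher and 3.8% lower, and 19.7% of called genes were higher, against 50.2% on log2(TPM + 1). The act-5 call was lost in 7 other settings, among them DESeq2 (-0.0833, adjusted p = 0.116), and in 7 of 12 fits that left out 1 sample (adjusted p = 0.0536 to 0.144). For the other 7 genes the age difference in effect was between -0.071 and 0.15 and did not pass.

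The lists of related genes were counted in the same way. Of 8 terminal web genes, ifd-2 and sma-5 rose in the first collection, by 0.39 and 0.31, and 0 fell (list median 0.0895). In the second 7 of 8 fell and 0 rose, from ifc-1 at -0.46 to ifc-2 at -0.16, with ifd-1 at -0.12 not called (median -0.249). The difference between collections was called lower for 6 of the 8, ifd-2 the largest at -0.76. Of the other 20 V-ATPase subunits 5 rose and 0 fell in the first collection, led by vha-11 at 0.11 (median 0.0492), and 1 rose and 6 fell in the second, from vha-18 at 0.12 to vha-5 at -0.17 (median -0.029). These counts were 2 and 0, then 1 and 7, on log2(TPM + 1). Of 10 transport genes 0 were called by edgeR in the first collection and 6 fell in the second, aqp-1 the most at -0.39 (medians -0.0986 and -0.122).

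Genes of the microvillus and apical cortex were mixed. In the first collection 1 of 15 fell, the junction gene ajm-1 at -0.11, and in the second 4 rose and 6 fell, from eat-20 at 0.12 to sma-1, a spectrin gene, at -0.31 (medians 0.0127 and -0.010). On log2(TPM + 1) 0 rose and 6 fell in the second, and with DESeq2 size factors 1 rose and 1 fell in the first. The 4 other actins had 0 calls in the first collection by edgeR, and in the second act-2 rose by 0.13 and act-1, act-3 and act-4 fell, act-4 the most at -0.23. Among 11 other acid phosphatase genes pho-9 rose by 0.45 and pho-11 fell by 0.42 in the first collection, where 2 rose and 1 fell, and in the second 0 rose and 6 fell, pho-6 the most at -0.60. Of 13 other luminal and gut-enriched products 2 rose and 1 fell in the first collection, with the metallothionein gene mtl-2 at 0.32 and cpr-1 at -0.18, and on log2(TPM + 1) 1 rose and 1 fell. In the second 1 rose and 8 fell, from cpr-4 at 0.061 to the lysozyme gene lys-8 at -0.30 (median -0.131). elt-1 at 0.23 was the 1 GATA factor called of 8, and glo-3 at -0.37 the 1 gut granule gene of 5, both in the second collection, and on log2(TPM + 1) elt-1 was not called.

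**Figure D3:**
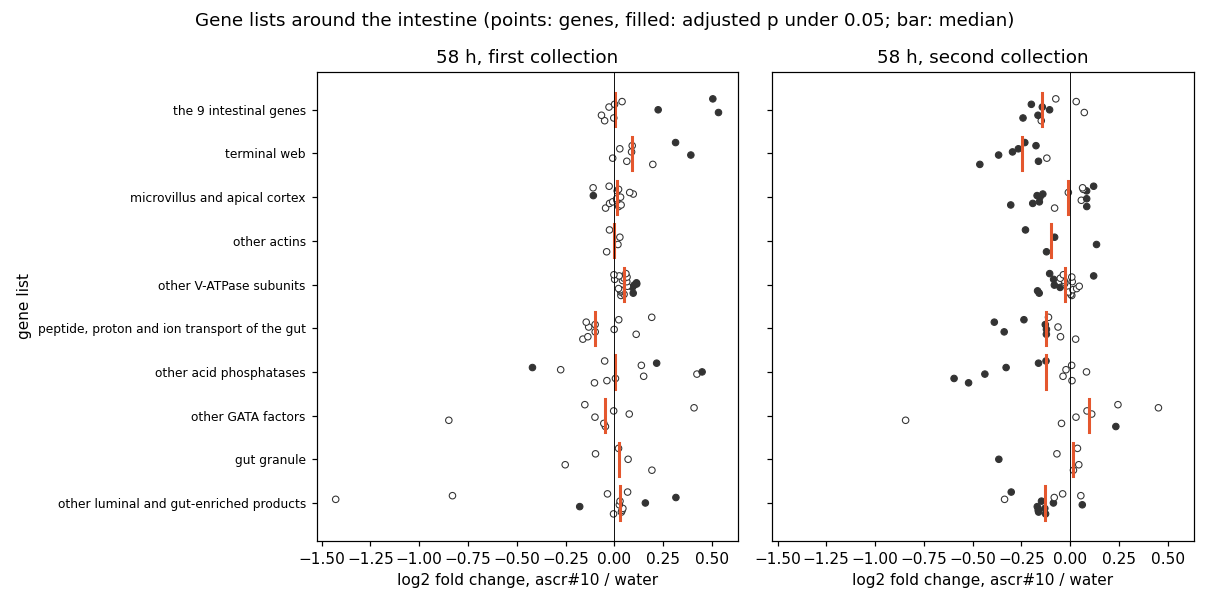
log2 fold change of ascr#10 over water at 58 h for each gene of the intestinal set and of 9 lists around it, in the first collection (left) and the second (right); filled points have adjusted p under 0.05 and red bars are list medians. The terminal web genes lie mostly above 0 on the left, with a median of 0.0895, and below 0 on the right, with a median of -0.249.

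Markers of other tissues also differed with exposure in the second collection. Summed CPM of 5 body wall muscle genes was 2821 to 2986 in water and 2296 to 2386 in ascr#10, and 5 of 5 fell. Summed CPM of 3 pharyngeal muscle genes was 200.4 to 211 in water and 113 to 132 in ascr#10, and 3 of 3 fell. For 8 germline genes it was 4843 to 4897 in water and 5188 to 5352 in ascr#10, and 7 of 8 rose, or 4 of 8 on log2(TPM + 1). For the 9 intestinal genes it was 1339 to 1367 and 1250 to 1290. In the first collection the intestinal sum was 1092 to 1136 in water and 1178 to 1207 in ascr#10, and 0 of 8 germline genes were called by edgeR. The body wall muscle sums overlapped there, at 3580 to 3844 and 3373 to 3590, although 2 of 5 genes fell. Pharyngeal muscle sums did not overlap, at 299 to 318 in water and 269 to 294 in ascr#10, with 0 of 3 genes called by edgeR. Summed CPM of 5 sperm genes was 42.5 to 45.2 in water and 27.3 to 29.1 in ascr#10 in the first collection, and 39.9 to 41.4 and 29.8 to 30.2 in the second, and 3 of 5 fell in each. Summed CPM of 3 excretory cell genes was 173 to 178 in water and 182 to 188 in ascr#10 in the first collection, and 170.3 to 178 and 162 to 168 in the second. For 6 hypodermal genes, elt-3 among them, it was 1193 to 1215 and 1255 to 1287, then 1518 to 1569 and 1395 to 1407, in the same order. The part of these tissues in the intestinal values was not tested.

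The age comparison asks how the genes differed between the younger and older worms. From 50 h to 58 h in the first collection, 8 of the 9 genes fell in water and 8 fell in ascr#10, and 0 rose in either. ifb-2, pept-1 and elt-2 fell the most, to 0.309, 0.312 and 0.338 of the 50 h level in water, and elt-7 did not pass. Among all genes 79.9% were called in water, 37.5% higher and 42.4% lower, and 80.9% in ascr#10, 37.0% higher and 43.9% lower, so most genes were called. The medians of the 9 were -0.513 in water and -0.573 in ascr#10, against -0.102 and -0.125 over all genes, and on log2(TPM + 1) those of all genes were -0.012 and 0.00018. The values per sample are those given with the exposure comparisons, and the 50 h and 58 h groups of elt-7 overlapped in both exposures.

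Of the 2 GATA factors, elt-2 fell with age and elt-7 was not called. elt-2 went from a mean of 14.9 ± 0.204 to 5.04 ± 0.587 CPM in water (SD, n = 3 each), a log2 fold change of -1.56 ± 0.0861 (SE, adjusted p = 2.87e-23), and by -1.59 in ascr#10. elt-7 went from 8.29 ± 0.359 to 8.27 ± 0.141 CPM in water, a difference of -0.0070 with a 95% interval of -0.18 to 0.17. In ascr#10 its difference was 0.035 (interval -0.14 to 0.21), and on log2(TPM + 1) it rose there by 0.163 (limma adjusted p = 0.011). Of the 8 other GATA factors tested 6 rose and 2 fell in water (median 0.716), from end-1 at 6.02 to elt-3, a hypodermal factor, at -1.05. end-1 and end-3 act in the endoderm of the early embryo, and summed CPM of the 4 early endoderm genes was 0.203 to 0.221 at 50 h and 1.48 to 1.88 at 58 h in water, with 2 of the 4 at 0 at 50 h. The part of RNA from embryos inside the worms in the values of the 9 genes was not tested.

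The enzymes and transporters fell by different amounts. pept-1 went from 79.2 ± 1.75 to 24.7 ± 0.953 CPM in water, -1.68 ± 0.0401 on the log2 scale (adjusted p = 5.54e-40), and by -1.37 in ascr#10. pho-1 went from 43.7 ± 1.47 to 24.3 ± 0.0822 CPM, -0.85 ± 0.0473 (adjusted p = 5.84e-23), and by -0.70 in ascr#10. ges-1 and vha-6 fell by less, with -0.49 and -0.51 in water and -0.45 and -0.57 in ascr#10 (adjusted p at most 1.24e-08). Of 10 other transport genes 10 fell in water and 9 in ascr#10, itr-1, a calcium release channel gene, the most at -1.01 and -1.08 (medians -0.78 and -0.874).

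Among structural genes, those of the terminal web fell, and act-5 and erm-1 fell by far less. ifb-2 went from 313 ± 1.37 to 96.7 ± 1.18 CPM in water, -1.69 ± 0.0261 (adjusted p = 2.79e-49), and by -1.63 in ascr#10. Of the 8 other terminal web genes 8 fell in both exposures, with medians of -1.48 and -1.41 and ifp-1 the most at -3.24 and -3.17. act-5 fell by 0.16 in water and 0.27 in ascr#10 on the log2 scale. erm-1 fell by 0.055 in water (adjusted p = 0.0294) and 0.13 in ascr#10. The erm-1 change in water did not hold with DESeq2 size factors (-0.0079, adjusted p = 0.767), without water replicate 1 of either age or replicate 2 of 58 h (adjusted p up to 0.104), and turned to 0.0269 on log2(TPM + 1). In ascr#10 it was -0.00083 on log2(TPM + 1) (adjusted p = 0.981). Of 15 other genes of the microvillus and apical cortex 10 rose and 3 fell in water (median 0.337), from eat-20 at 0.97 to eps-8, which encodes a microvillar actin-binding protein, at -0.99.

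The rest of the pump, the other actins and the secreted products showed no such single direction. Of the 20 other V-ATPase subunits 3 rose and 11 fell in water (median -0.0556) and 3 rose and 16 fell in ascr#10 (median -0.131), while on log2(TPM + 1) 7 rose and 3 fell in water. act-2 rose by 0.48 and act-4 fell by 0.56 in water, where 3 of the 4 other actins fell. Of 11 acid phosphatase genes 3 rose and 5 fell in water, and of 13 luminal and gut-enriched products 5 rose and 6 fell, from mtl-2 at 0.92 to ftn-1, a ferritin gene, at -1.42. All 5 body wall muscle and all 5 sperm markers also fell with age in water. Their sums went from 6089 to 6252 down to 3580 to 3844 CPM and from 454 to 470 down to 42.5 to 45.2 CPM. Every hypodermal and pharyngeal muscle marker fell too. Those sums went from 1706 to 1731 down to 1193 to 1215 CPM and from 619 to 638 down to 299 to 318 CPM. Of 5 neuronal markers unc-119 and snb-1 rose, by 0.96 and 0.25, and rab-3, ric-19 and unc-104 fell. The neuronal sum went from 182.9 to 186 up to 202.5 to 203.1 CPM. Of 3 excretory cell markers exc-4 rose by 0.42, and aqp-8 and vha-5 fell. The germline sum went from 3336 to 3412 up to 4595 to 4711 CPM, although glh-1 fell by 0.175 and pgl-1 was not called. The part of these tissues in the fall of the intestinal genes was not tested.

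The comparison of the 2 collections at 58 h asks how far worms of the same labelled age differed. In water, 6 of the 9 genes were higher in the second collection and 1 lower, and in ascr#10 5 were higher and 2 lower. pept-1 was 3.2-fold higher in water and 2.32-fold in ascr#10, pho-1 2.55-fold and 1.71-fold, and elt-2 2.19-fold and 2.04-fold. erm-1 was lower in both, at 0.796 and 0.791 of the first. Among all genes 58.1% were called in water, 30.8% higher and 27.3% lower, and 55.5% in ascr#10, 30.2% higher and 25.4% lower. The medians of the 9 were 0.326 and 0.201, against 0.013 and 0.024 over all genes.

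These values depend on the scale more than the others. On log2(TPM + 1) the median of all genes was -0.153 in water and -0.145 in ascr#10, and of all called genes 19.6% and 17.2% were higher, against 53.1% and 54.3%. elt-2 was higher by 1.13 ± 0.0834 in water (adjusted p = 1.60e-17) and 1.03 in ascr#10. elt-7 was at 0.033 in water (adjusted p = 0.749) and -0.21 in ascr#10 (adjusted p = 0.0252). In water it was called lower on log2(TPM + 1), at -0.197 (limma adjusted p = 0.00484). The elt-7 call in ascr#10 was lost without replicate 1 of the second collection or replicate 2 or 3 of the first (adjusted p = 0.0862 to 0.128) and with length-scaled counts (-0.181, adjusted p = 0.0567). ges-1 did not pass in either, at -0.029 and -0.13 (adjusted p = 0.713 and 0.0766), but was called lower on log2(TPM + 1), at -0.269 and -0.367.

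pept-1 was higher by 1.68 ± 0.0383 in water and 1.22 ± 0.0357 in ascr#10 (adjusted p = 8.88e-40 and 1.48e-34). pho-1 was higher by 1.35 ± 0.043 and 0.77 ± 0.0405 (adjusted p = 4.26e-33 and 2.10e-23). act-5 was higher by 0.53 in water and 0.20 in ascr#10. In ascr#10 it was called lower on log2(TPM + 1), at -0.0781 (limma adjusted p = 0.00622). ifb-2 was higher by 0.33 and 0.21, with 0.0511 (not called) and -0.0723 (called lower, limma adjusted p = 0.0148) on log2(TPM + 1). vha-6 was higher by 0.16 in water but called lower on that scale, at -0.112 (limma adjusted p = 0.00276). For erm-1 the values were -0.33 and -0.34 (adjusted p = 3.11e-18 and 1.32e-18). Against the same exposure at 50 h, which was taken with the first collection, mean CPM in water stood at 31.1% in the first and 99.6% in the second for pept-1, 55.7% and 142% for pho-1, 33.8% and 74.0% for elt-2, and 30.9% and 38.7% for ifb-2. The age and collection comparisons share the 58 h samples of the first collection, and these percentages share their 50 h samples.

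**Figure D4:**
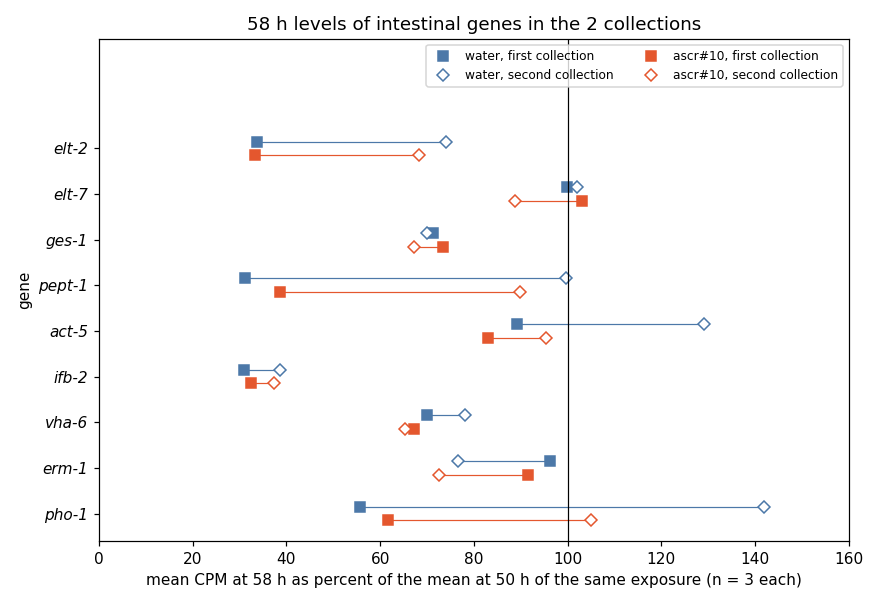
Mean CPM at 58 h as a percent of the mean at 50 h of the same exposure (line at 100) for each gene, in water (blue) and ascr#10 (red), with squares for the first collection and open diamonds for the second. In water pept-1 moves from 31.1% to 99.6% and pho-1 from 55.7% to 142%, while ifb-2 moves from 30.9% to 38.7% and erm-1 moves from 96.2% to 76.6%.

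The terminal web list was higher in the second collection for 7 of 8 genes in water, ifd-2 the most at 1.63 (median 0.892), and for 7 of 8 in ascr#10, ifd-2 again the most at 0.87 (median 0.532). On log2(TPM + 1) these counts were 7 higher and 0 lower in water and 4 and 1 in ascr#10. Of 15 microvillus and apical cortex genes 2 were higher and 11 lower in water, from eps-8 at 0.36 to crb-1 at -0.54 (median -0.193), and on log2(TPM + 1) 0 were higher and 14 lower. Among transport genes nhx-2, a sodium-proton exchanger gene, was higher by 0.69 and pgp-2 lower, at -0.97, with 3 of 10 higher and 6 lower. For the other V-ATPase subunits 12 of 20 were higher and 4 lower in water, led by vha-1 at 0.42, but 2 higher and 15 lower on log2(TPM + 1). Summed body wall muscle CPM stood at 3580 to 3844 in the first collection and 2821 to 2986 in the second in water, and early endoderm CPM at 1.48 to 1.88 and 0.803 to 1.17. The hypodermal sum in water was 1193 to 1215 in the first and 1518 to 1569 in the second, with col-19 called higher and 4 of the 6 lower, beside 1092 to 1136 and 1339 to 1367 for the 9 intestinal genes. The part of these tissues in the values of the 9 genes was not tested.

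Transcript tables were read for the 9 genes, and 6 of them have more than 1 transcript there. For act-5, T25C8.2.1 held a mean of 85.3% to 89.6% of the gene's TPM by group. It rose by 0.33 at 50 h and by 0.19 at 58 h in the first collection (edgeR adjusted p = 8.36e-05 and 0.00646, over 22748 transcripts). In the second collection it was at -0.091 and did not pass (adjusted p = 0.148). The difference between the collections in its effect, -0.28, did (adjusted p = 0.0051). Among all transcripts 3.31%, 4.84% and 7.99% were called in these 3 exposure comparisons and 3.51% in the difference. EGAP2.3.2, the pho-1 transcript, rose by 0.36 and 0.53 in the same first 2 comparisons, by 0.22 in the mean of both collections (9.77% of transcripts called), and was 1.34 and 0.72 higher in the second collection in water and ascr#10 (36.3% and 34.1% called). The 2 main transcripts of ifb-2, F10C1.7a.1 and F10C1.7c.1, fell with age in water, at -1.67 ± 0.0846 and -1.68 ± 0.123 (53.2% of transcripts called), and at -1.74 and -1.37 in ascr#10 (54.8% called). The erm-1 transcript C01G8.5a.1 held 97.7% to 99.9% of that gene's TPM in each sample. vha-6 and pho-1 each had 1 transcript with counts and another at 0 in all samples. For elt-7 the transcript C18G1.2b.1 held 0% to 29.6% by sample and was at 0 in all 3 water samples of 58 h in the first collection, so its share was too variable between replicates to compare.

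The pattern of each gene over the 6 groups was set against the other 16005 tested genes, by the root mean square difference of log2 group means centred on each gene's mean. The nearest to elt-2 were hsp-12.1 (0.0888), fpn-1.2 (0.0953) and K10C9.9 (0.102). Nearest to pept-1 were C39H7.4 (0.0968), D1022.3 (0.126) and sup-10 (0.132). For vha-6, R07G3.8 (0.0192), nlp-10 (0.0234) and hsp-25 (0.0237) were closest. For act-5 they were gst-42, calu-1 and lec-10 (0.0338 to 0.0477), and for ifb-2 dyf-7, bcl-11 and Y47G6A.19 (0.0464 to 0.0565). pho-1 had elo-9, H20E11.1 and C50B8.6 (0.0699 to 0.0796), ges-1 had endu-1, col-53 and C18C4.7 (0.031 to 0.0346), erm-1 had kat-1, hpo-29 and gcy-19 (0.0301 to 0.0358), and elt-7 had pcp-5, fbxa-90 and gba-3 (0.0412 to 0.0496). None of these nearest genes was another of the 9. The closest pair among them, ges-1 and vha-6 (0.0767), had ranks 137 and 155 in each other's order, and the nearest of the 9 to elt-2 was pept-1 (0.265), at rank 195.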

How the data were processed

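RNA sequencing of 18 whole-worm samples was analysed. The deposited estimated counts per gene and per transcript are salmon's, per the file names and headers, summed over transcripts for genes and not normalized. The authors also deposited length-scaled estimated counts and TPM values. How reads were assigned by strand, and against which genome build, was not stated in the labels or headers. Coordinates are from the Ensembl release 115 annotation of WBcel235 by identifier, which held 46167 of 46253 identifiers. Counts, 95.2% of them whole as deposited, were rounded. Genes were kept with filterByExpr at a minimum count of 10, scaled by TMM and fitted in edgeR 4.0.16 (R 4.3.3) as 6 group means over all 18 samples, with robust quasi-likelihood tests. The biological coefficient of variation was 2.86%. CPM came from the same fit, and log2 CPM used a prior count of 2. limma 3.58.1, on log2(TPM + 1) or log2(TPM + 0.1), DESeq2 1.42.0 and DESeq2 size factors were alternatives, with every gene of at least 1 count, a minimum count of 50, length-scaled counts, the compared groups alone, a replicate block and each sample left out. Counts for the lists under DESeq2 size factors, log2(TPM + 1) and without ascr#10 replicate 2 at 50 h were added after seeing the data. The tests were also run on independent counts simulated from the fitted spread, which cannot show how they behave on the real replicates. The genes and lists were chosen with earlier results of these data known. Besides the 9 genes, the text names the called gene with the largest rise and fall in a list, the 3 genes nearest in pattern, and where a list is small its other called genes, chosen after their values were seen. Of 136 intended list genes 135 were found and 131 tested.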

Additional observations from a re-analysis of the deposited data

Results flagged for a closer look

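Effects of ascr#10 that differed between conditions by an edgeR interaction test, with adjusted p over all 16006 genes, were found for 5 of the 9 genes. Among all genes 11.1% were called for the difference between collections, 4.34% higher and 6.8% lower. At 58 h the log2 effect in the second collection minus that in the first was -0.58 for pho-1, -0.46 for pept-1, -0.33 for act-5, -0.20 for vha-6 and -0.12 for ifb-2 (adjusted p = 1.46e-10, 3.58e-09, 2.41e-12, 1.26e-05 and 0.0321). The ifb-2 call was lost in 8 of 12 fits that left out 1 sample. For act-5 the effect turned from a rise to a fall, and each of the 3 exposed samples lay beyond all 3 controls in both collections. The collections differed in harvest, in depth and in muscle and germline marker sums, and the part of these was not tested.

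Between 50 h and 58 h within the first collection, the effect on pept-1 was higher by 0.31 at 58 h (adjusted p = 7.22e-05). That on act-5 was lower, at -0.11 (adjusted p = 0.0296), and this last call was lost in 7 of the alternative settings. Among all genes 4.74% were called for this age difference.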

How the results depend on the processing

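Under other filters, scalings, tools and left-out samples, most values kept their direction and side of the threshold, and where they did not the cause was not tested, except that fewer samples or genes entered some fits. Total counts were 25.6 to 32.9 M in the first collection, and elt-2 had the fewest counts of the 9 in a sample, at 115. The count of the 9 genes called for the difference between the effects at 58 h and 50 h went from 2 to 1 with every gene tested, a minimum count of 50, DESeq2 size factors, DESeq2, either pseudocount and the compared groups alone, and was 1 to 2 with 1 sample left out. In the mean of both collections, act-5, pho-1 and ges-1 lost their calls with 1 effect common to both.

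Directions that turned were mostly those of differences near 0. With log2(TPM + 1) and log2(TPM + 0.1), exposure gave -0.00926 and -0.00933 for vha-6 at 50 h, -0.0258 and -0.0261 for vha-6 at 58 h in the first collection, and -0.00468 and -0.00473 for erm-1 in the second. On the same 2 scales age in water gave 0.0617 and 0.0666 for elt-7 and 0.0269 and 0.0271 for erm-1, and the age difference of the elt-2 effect was 0.0368 and 0.0329. Between collections they gave -0.197 and -0.213 for elt-7 and -0.112 and -0.113 for vha-6 in water, and -0.0781 and -0.0783 for act-5 and -0.0723 and -0.0736 for ifb-2 in ascr#10. These values between collections were all called lower (limma adjusted p at most 0.0148).

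With every gene tested, exposure in the first collection gave 0.0297 for elt-7 and 0.00552 for ifb-2, age in water 0.0129 for elt-7, and the age difference of the elt-2 effect 0.0105. A minimum count of 50 gave -0.00155 for vha-6 in the first collection, -0.0125 for elt-7 between collections in water and 0.0116 for the collection difference of the erm-1 effect. DESeq2 size factors and DESeq2 gave 0.0109 and 0.0112 for elt-7 in the first collection and 0.0404 and 0.0406 with age in water. Length-scaled counts gave 0.0122 for elt-7 and -0.000688 for vha-6 in the first collection, and the compared groups alone -0.00158 for vha-6.

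With 1 sample left out, exposure in the first collection ranged from -0.141 to 0.00738 for elt-2, -0.0344 to 0.0473 for elt-7 and -0.0212 to 0.0293 for vha-6. Age gave -0.0352 to 0.033 in water and -0.0118 to 0.0792 in ascr#10 for elt-7, and the collections in water -0.0466 to 0.0224 for ges-1. The age difference in effect was -0.115 to 0.033 for elt-2 and -0.0148 to 0.0877 for ges-1, and the collection difference -0.0293 to 0.0159 for erm-1.

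Same-numbered samples of different groups did not deviate together (r = -0.0456 to 0.0349), so the numbers do not pair them. With the replicate block the counts of the 9 called were 5, 3, 5 and 6 for exposure at 50 h, in the first collection, in the second and in their mean, 8 and 8 for age, 7 and 6 for the collections in water and ascr#10, and 2 and 5 for the differences in effect by age and collection. The 1 call that changed was elt-7 between collections in ascr#10, at -0.232 (adjusted p = 0.0708).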
